A study of Rattus norvegicus with 87 samples.

Results

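Expression of 7 genes that mark astrocytes was followed in 81 outbred Heterogeneous Stock (HS) rats, in the lateral habenula (LHb). The genes were chosen by their identifiers, not by their values, and all 7 had a row among the 17512 genes of the deposited table: Gfap (ENSRNOG00000002919), Aqp4 (ENSRNOG00000016043), Kcnj10 (ENSRNOG00000007705), Slc1a2 (ENSRNOG00000005479), Slc1a3 (ENSRNOG00000016163), Gja1 (ENSRNOG00000000805) and S100b (ENSRNOG00000001295). The table itself held identifiers without symbols, so the symbols are those with which the genes were selected. The animals had been given no behavioral test and no drug. RNA carrying a poly(A) tail was sequenced from tissue that had been picked by hand from frozen sections, with both sides of a brain combined, in 41 males and 40 females of rat batches 2, 3, 4, 5 and 6. The study's methods give close mean ages for the males and the females of the whole cohort, without a unit. Rats had been picked with the aim of avoiding relatives, although the study still found several pairs that seemed closely related. No group other than sex and rat batch was labelled.

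Astrocytes are the glial cells that take up transmitter and potassium around synapses and cover blood vessels with their end-feet. Gfap encodes the intermediate filament of the astrocyte skeleton and S100b a calcium-binding protein of the cytoplasm. Aqp4 is the water channel of the end-feet, and Gja1 is connexin 43, which forms the gap junctions that couple astrocytes. Kcnj10 is Kir4.1, the inwardly rectifying channel that carries potassium into astrocytes, and in the rat LHb it is known for its effect on the burst firing of neurons. Slc1a2 (GLT-1) and Slc1a3 (GLAST) are the glutamate transporters of astrocytes. S100b is also made by oligodendrocytes, Slc1a2 is also found at lower levels in neurons, and Gja1 also occurs in leptomeningeal cells.

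The sequences before the start sites of 4 of these genes are shown because they belong to the pairs of genes with the highest correlations among rats, Kcnj10 with Slc1a2 and Slc1a3 with Gja1. Each is the 250 bases before the start site that lies farthest upstream, taken from RefSeq on GRCr8, which is a later build than the Rnor_6.0 named in the submitters' processing notes. The windows are chr13:87334260-87334509 (plus strand) for Kcnj10, chr3:109459859-109460108 (plus strand) for Slc1a2, chr2:59557809-59558058 (minus strand) for Slc1a3 and chr20:36302314-36302563 (plus strand) for Gja1. They are written 5′ to 3′ on the strand of the gene, and capitals mark each match, on either strand, to TATAAA (the TATA box), CCAAT (the CCAAT box), GGGCGG (the GC box), TGANTCA (the AP-1 motif), TGACGTCA (the cyclic AMP response element), CACGTG (an E-box), TTCNNNGAA (the STAT motif) and ACAAAG (a SOX core motif).
Kcnj10: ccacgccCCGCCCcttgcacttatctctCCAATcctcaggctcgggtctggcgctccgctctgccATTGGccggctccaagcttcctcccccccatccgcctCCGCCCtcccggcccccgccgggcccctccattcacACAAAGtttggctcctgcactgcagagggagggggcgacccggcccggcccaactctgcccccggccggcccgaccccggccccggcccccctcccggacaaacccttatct
Slc1a2: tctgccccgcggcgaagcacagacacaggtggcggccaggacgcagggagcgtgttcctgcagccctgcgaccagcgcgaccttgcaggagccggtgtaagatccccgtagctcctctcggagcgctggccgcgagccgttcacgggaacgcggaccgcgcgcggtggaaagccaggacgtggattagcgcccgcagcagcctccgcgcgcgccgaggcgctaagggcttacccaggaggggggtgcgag
Slc1a3: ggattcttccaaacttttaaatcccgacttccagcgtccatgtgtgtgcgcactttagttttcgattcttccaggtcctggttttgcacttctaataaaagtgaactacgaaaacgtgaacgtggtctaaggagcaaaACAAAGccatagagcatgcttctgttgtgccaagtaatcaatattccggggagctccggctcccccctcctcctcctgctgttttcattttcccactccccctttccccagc
Gja1: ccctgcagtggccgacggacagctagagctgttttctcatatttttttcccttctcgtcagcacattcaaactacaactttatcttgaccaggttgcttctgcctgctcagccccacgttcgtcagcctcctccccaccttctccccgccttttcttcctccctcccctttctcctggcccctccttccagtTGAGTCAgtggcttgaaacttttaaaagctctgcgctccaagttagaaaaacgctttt

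The windows of Kcnj10 and Slc1a2 were rich in G and C, at 72.4% and 71.2%, and held 20 and 33 CG dinucleotides. Those of Slc1a3 and Gja1 held 48.0% and 51.2% G and C with 9 and 8 CG dinucleotides, where the median of 33465 rat windows was 51.2% with 5 CG dinucleotides. In Kcnj10, 2 matches to CCAAT began 222 and 185 bases before the start, and 2 to GGGCGG began 243 and 148 bases before it. CCAAT occurs in 34% of all windows and GGGCGG in 30.5%. ACAAAG, present in 16.3% of windows, began 112 bases before the start in both Kcnj10 and Slc1a3. Gja1 held TGANTCA 58 bases before its start, and 6.3% of windows hold it. Slc1a2 held none of these letters in this window. No match overlapped another. These are matches of letters, and no binding was measured.

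All 7 genes were above 0 in all 81 rats. The values are log2(normalized count + 1), where a normalized count is an estimated read count after the authors scaled the libraries to a common upper quartile. The total of the scaled counts ranged from 16.2 to 20.18 M per rat (M is 1000000 counts), and 296 to 1661 genes were listed at 0 in a rat. The depth before scaling was not used here. Gene lengths were not used either, so the levels of different genes are not compared.

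Slc1a2 and Kcnj10 varied most among rats. The normalized count of Slc1a2 was 152 in the lowest rat, 506 at the median and 843 in the highest, a 5.55-fold range, and its log2 level was 8.87 ± 0.49 (SD, n = 81). Kcnj10 ranged from 318 through a median of 773 to 1263, which is 3.97-fold, at 9.57 ± 0.38. The same male, rat 39 of batch 3, was lowest in both, and the only rat of batch 5, a female, was highest in both. Gfap ranged from 6717 through 11589 to 18912 normalized counts, a 2.82-fold range, at a log2 level of 13.49 ± 0.26. Its lowest and highest rats, female rat 35 and male rat 35, were both of batch 4.

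The other members varied over narrower ranges. S100b lay between 17472 and 40491 normalized counts with a median of 25049, at a log2 level of 14.62 ± 0.25, and Aqp4 between 8937 and 20221 with a median of 14167, at 13.74 ± 0.24. Slc1a3 spanned 5865 to 10190 around a median of 8099, only 1.74-fold, at 12.94 ± 0.15. Gja1 spanned 4665 to 8246 around 6628, which is 1.77-fold, at 12.68 ± 0.16. Female rat 39 of batch 4 was lowest in both Slc1a3 and Gja1. After sex, rat batch and column run were removed, the residual SD on the log2 scale was 0.353 for Slc1a2, 0.322 for Kcnj10, 0.247 for Gfap, 0.2 for S100b, 0.177 for Aqp4, 0.154 for Gja1 and 0.135 for Slc1a3. Against the 13361 genes with a mean log2 level of at least 5, whose median residual SD was 0.215, Slc1a2 was more variable than 81.9% of genes, Kcnj10 than 77.6%, Gja1 than 24% and Slc1a3 than 15.5%. The pair of glutamate transporters therefore stood on opposite sides of the median gene. A column run is 1 of 3 consecutive alphabetical runs in which the rats stand in the table. What the runs stand for is not labelled, and they serve here as a technical split only.

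**Figure D1:**
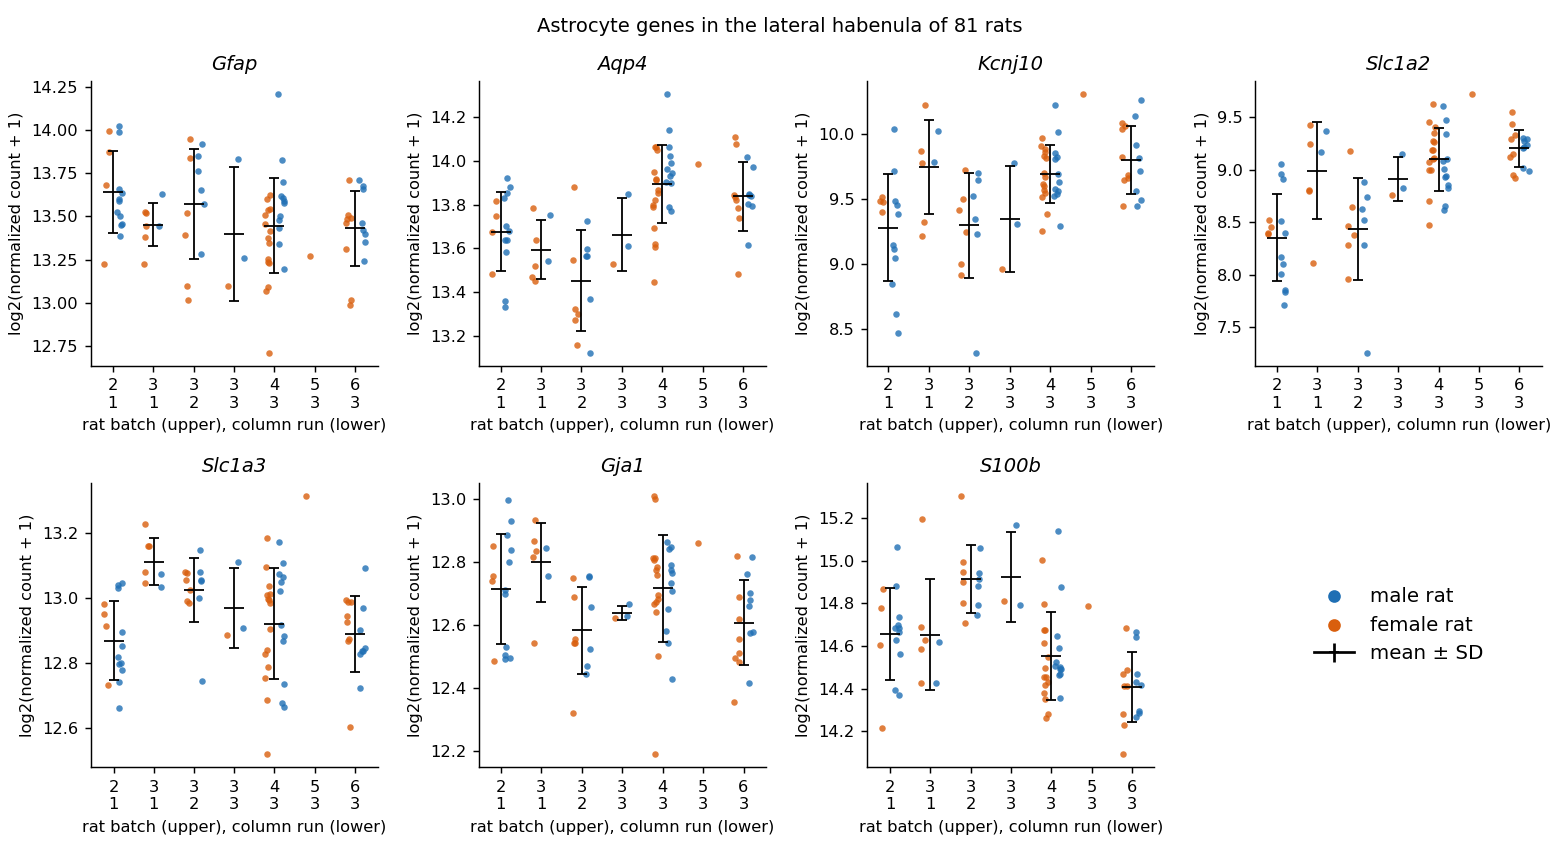
Log2(normalized count + 1) of each gene (vertical axis) in 81 rats, by rat batch and column run (horizontal axis). Points are rats colored by sex, and bars are the mean ± SD of cells with at least 3 rats. Slc1a2 and Kcnj10 are lowest in batch 2 and in run 2 of batch 3, and S100b is highest in runs 2 and 3 of batch 3.

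The first comparison asked whether the astrocyte genes differed between males and females. No gene passed the test: 0 of 7 had an adjusted p under 0.05 (limma with rat batch as a covariate, two-sided, 80 rats), where 0.131% of all 17512 genes were called. An unadjusted p under 0.05 was found for 1 of 7, Gfap, and for 5.04% of all genes. The median difference over the 7 genes, male minus female, was 0.01 on the log2 scale, and that over all genes was 0.00083. In bulk tissue, fewer cells of a type and less RNA per cell cannot be told apart, here and in each comparison that follows.

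Gfap had the largest difference among the 7. Its normalized count was 9379 in the lowest male, 12306 at the median and 18912 in the highest, and 6717, 11041 and 16290 in females. The sexes overlapped over most of this range. The male mean was above the female one by 0.16 on the log2 scale, with an SE of 0.0555, an unadjusted p of 0.0047 and a limma adjusted p of 0.614. Taken alone, batch 2 gave −0.07 (SE 0.131), batch 3 gave 0.20 (SE 0.106), batch 4 gave 0.26 (SE 0.0921) and batch 6 gave 0.12 (SE 0.0993), so the male mean was the higher one in batches 3, 4 and 6. By column run, it was −0.01 in run 1, 0.20 in run 2 and 0.22 in run 3. Without batch 4 it fell to 0.11, and with 20 expression components as covariates it was −0.18 with an SE of 0.265.

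Aqp4, the water channel, was 0.07 higher in males (SE 0.041, limma adjusted p 0.998), with 0.15 in batch 4 and −0.01, 0.08 and 0.01 in batches 2, 3 and 6. The differences of the others were −0.02 for Kcnj10 (SE 0.0752), −0.06 for Slc1a2 (SE 0.0841), −0.01 for Slc1a3 (SE 0.0313), 0.01 for Gja1 (SE 0.0368) and 0.04 for S100b (SE 0.0471), each with a limma adjusted p of 0.998. These SEs are the limit of the comparison. A sex difference of the channel Kcnj10 or the transporter Slc1a2 was measured less precisely than that of Slc1a3 or Gja1. Whether the sex difference varied between batches was tested by an interaction, and 0 of 7 genes were called, with 0 of 7 at an unadjusted p under 0.05 and 0% of all genes called (limma F-test, 306 genes at an unadjusted p under 0.05).

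**Figure D2:**
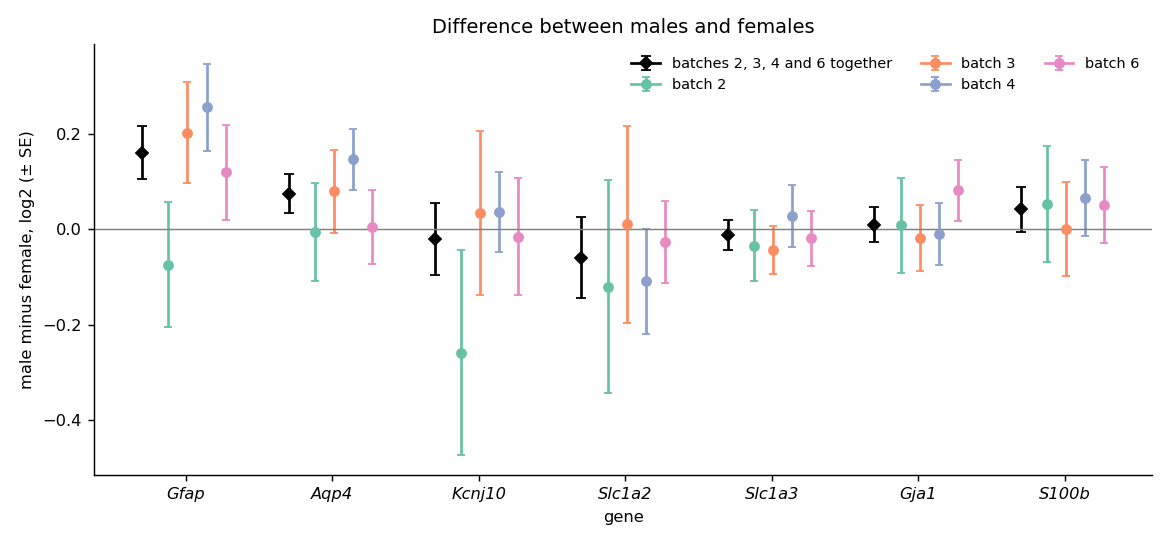
Male minus female difference on the log2 scale (vertical axis, ± SE) of each gene (horizontal axis), for batches 2, 3, 4 and 6 together (black) and within each batch (colors). Gfap is above 0 in batches 3, 4 and 6 and below it in batch 2, and the pooled differences of Kcnj10, Slc1a2, Slc1a3, Gja1 and S100b lie within 0.06 of 0.

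Rat batch made a larger difference. Of the 7 genes, 5 differed between batches 2, 3, 4 and 6 (limma F-test adjusted for sex), but 65.3% of all genes did so too, and the members' share is near that background. Slc1a2 was lowest in batch 2, with a log2 level of 8.35 ± 0.41 (SD, n = 15), followed by batch 3 with 8.68 ± 0.51 (n = 22), batch 4 with 9.10 ± 0.30 (n = 27) and batch 6 with 9.20 ± 0.18 (n = 16), and its limma adjusted p was 1.92e-08. In normalized counts, batch 2 held 209 in its lowest rat, 336 at the median and 532 in its highest, and batch 6 held 483, 597 and 750, so these batches barely overlapped. Kcnj10 had the same order, at 9.28 ± 0.41, 9.44 ± 0.43, 9.69 ± 0.22 and 9.80 ± 0.26, with an adjusted p of 0.000165 by limma. For both genes the means of batches 4 and 6, neighbours in this order, differed by less than the SD within either batch.

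Aqp4 was lowest in batch 3 at 13.53 ± 0.21 (SD, n = 22), followed by batch 2 at 13.68 ± 0.18, batch 6 at 13.84 ± 0.16 and batch 4 at 13.89 ± 0.18, with a limma adjusted p of 9.74e-09. S100b was highest in batch 3 at 14.83 ± 0.23, followed by batch 2 at 14.66 ± 0.21, batch 4 at 14.55 ± 0.21 and batch 6 at 14.41 ± 0.16, with an adjusted p of 5.76e-07 by limma. Slc1a3 was highest in batch 3 at 13.04 ± 0.10 and lay between 12.87 and 12.92 in the others, with a limma adjusted p of 0.00147. That call rested on batch 3, and without this batch the adjusted p was 0.61, where 49.9% of all genes were called. Gfap (13.64 ± 0.24, 13.51 ± 0.28, 13.45 ± 0.28 and 13.43 ± 0.22 in batches 2, 3, 4 and 6, limma adjusted p 0.249) and Gja1 (12.71 ± 0.17, 12.66 ± 0.16, 12.71 ± 0.17 and 12.61 ± 0.14, limma adjusted p 0.183) did not pass the threshold.

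Rat batch and column run overlap. The 15 rats of batch 2 were in run 1, and the 27 of batch 4 and 16 of batch 6 were in run 3. Only batch 3 was split, with 7 rats in run 1, 12 in run 2 and 3 in run 3. Within batch 3, 2 of 7 genes differed between runs 2 and 1 (limma adjusted for sex), where 23% of all genes did. Gja1, the connexin, was lower in run 2, with a log2 difference of −0.22 (SE 0.0666, limma adjusted p 0.0239), at 5105, 5987 and 6905 normalized counts in the lowest, median and highest of 12 rats against 5961, 7303 and 7822 among 7 rats of run 1. The S100b level was higher in run 2 by 0.28 (SE 0.0944, limma adjusted p 0.0367), with 26812, 30717 and 40491 against 22007, 25161 and 37563 normalized counts. The runs overlapped in both genes. Kcnj10 (−0.46, SE 0.174) and Slc1a2 (−0.57, SE 0.215) had larger differences with wider errors, at limma adjusted p of 0.0592 and 0.0594. Male rat 39, the lowest in both, stood in run 2, and without it the differences were −0.39 and −0.49 at adjusted p of 0.0401 and 0.0439 by limma, so 4 of 7 genes were then called, against 21.9% of all genes. When the count of genes listed at 0 was added to the model, S100b was at an adjusted p of 0.106 and 1 of 7 was called, against 12.6% of all genes.

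With the column run held fixed, no member passed. Between batches 3 and 2 within run 1 (22 rats), 0 of 7 genes and 0% of all genes were called by limma, with 3 of 7 members and 1507 genes at an unadjusted p under 0.05. Those 3 members were higher in batch 3, by 0.66 for Slc1a2 (SE 0.204), 0.42 for Kcnj10 (SE 0.189) and 0.22 for Slc1a3 (SE 0.0581). Between batches 6 and 4 within run 3 (43 rats), 0 of 7 genes were called by limma against 10% of all genes. An unadjusted p under 0.05 was found for 2 of 7, S100b at −0.15 (SE 0.0598) and Gja1 at −0.11 (SE 0.0495). It was found for 27.9% of all genes too, and the members' share is near that background. Without female rat 39 of batch 4, Gja1 was called at −0.13 with a limma adjusted p of 0.046, where 10.8% of all genes were called. Slc1a2 differed here by 0.11 (SE 0.0798) and Kcnj10 by 0.11 (SE 0.0735). When batches 2 and 3 are set against batches 4 and 6, batch and column run cannot be told apart except through the 3 rats of batch 3 in run 3. With column run as a covariate over all 80 rats, 4 of 7 genes differed between batches where 35.3% of all genes did, and Aqp4 did not, at a limma adjusted p of 0.196.

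The next comparison asked which of the genes rose and fell together from rat to rat. For each gene in turn, every other gene was regressed on its log2 level with limma, with sex and the cell of batch by column run as covariates, and the p-values were adjusted over the other 17511 genes. Correlations over the 80 rats are between residuals after these covariates, so mean differences between sexes, batches and runs do not enter them. Those given within a cell are between the log2 levels of its rats, where batch and run are fixed but sex was not removed. The 7 genes form 21 pairs, of which 18 had a positive r and 3 a negative one, with a median of 0.27 and a range of −0.23 to 0.69. In 6 pairs each gene was called with the other, in 3 pairs only 1 of the 2 fits was past the threshold, and in 12 neither was. These 6 pairs were also the pairs with a positive r in all 5 cells of at least 6 rats. Both fits of a pair test nearly the same residual correlation, but the adjusted p also depends on how many other genes each fit calls. For Slc1a3 and S100b the limma unadjusted p were 0.0047 and 0.00488, and the limma adjusted p 0.0982 and 0.0123. A call can therefore come or go with the number of other genes called while r changes little. No pair was called with a negative slope in these fits, but S100b was called with Kcnj10 and Slc1a2 with a negative slope under other settings.

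**Figure D3:**
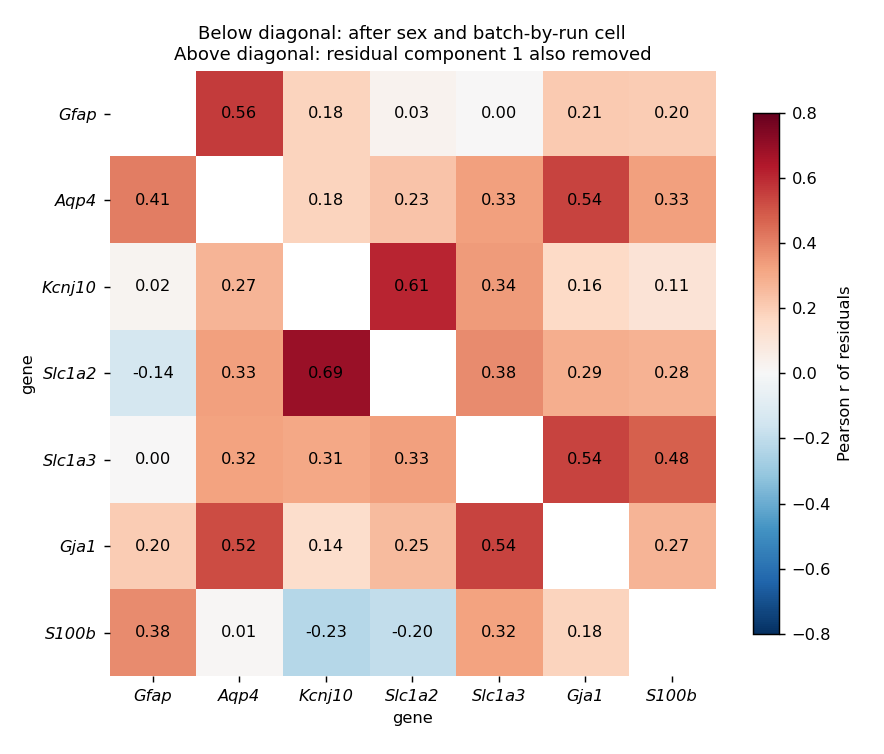
Pearson r of the residuals of each pair of genes over 80 rats, after sex and batch-by-run cell (below the diagonal) and with component 1 of the residuals of all genes also removed (above the diagonal); the color scale runs from −0.8 to 0.8. Kcnj10 with Slc1a2 has the highest value below the diagonal, 0.69, and the negative values, all below the diagonal, are those of Slc1a2 with Gfap and of S100b with Kcnj10 and Slc1a2.

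Kcnj10 and Slc1a2, the potassium channel and the GLT-1 transporter, were the closest pair. Their residuals had r = 0.69 and rho = 0.61, each with a permutation p of 1e-05, the smallest that 100000 permutations can give, and the limma adjusted p was 8.55e-10 in the fit on Kcnj10 and 3.27e-10 in that on Slc1a2. Without the 2 rats farthest from the median of Kcnj10, male rats 20 and 39, r was 0.61. Within cells it was 0.84 in batch 2, 0.82 and 0.87 in runs 1 and 2 of batch 3, 0.33 in batch 4 and 0.44 in batch 6. It was 0.73 in males and 0.62 in females. Both genes varied with very many others, however. In the fit on Kcnj10, 31.3% of all genes were called, 16.6% with a positive slope, and in that on Slc1a2 34.3% and 17.7%. Of 13360 genes with a mean log2 level of at least 5, 89 had a higher r with Kcnj10 than Slc1a2 had, and 219 had a higher r with Slc1a2 than Kcnj10 had. With 20 expression components as covariates, r was 0.28 and the pair was no longer called.

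Slc1a3 and Gja1, the GLAST transporter and connexin 43, formed the next pair, with r = 0.54 (permutation p 1e-05) and rho = 0.47 (permutation p 3e-05). The limma adjusted p was 0.000558 on Slc1a3 and 0.00248 on Gja1. In each of the 5 cells r was positive, between 0.34 and 0.68. It fell to 0.43 without female rats 29 and 39, the farthest from the median of Slc1a3. The fit on Slc1a3 called 2.96% of all genes, 1.48% with a positive slope, and that on Gja1 0.297% and 0.24%. Of the 13360 genes, 14 had a higher r with Slc1a3 than Gja1 had, and 6 had a higher r with Gja1 than Slc1a3 had. This call too was lost with 20 expression components, at r = 0.28 with limma adjusted p of 0.745 and 0.629, and without batch 4, at r = 0.43 with limma adjusted p of 0.12 and 0.434.

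Aqp4 and Gja1, which both act where astrocytes meet vessels and each other, had r = 0.52 and rho = 0.53 (each with a permutation p of 1e-05), with limma adjusted p of 0.00189 and 0.00299. The r ranged from 0.24 to 0.71 over the 5 cells. In the fit on Aqp4, 9.95% of all genes were called, 5.53% with a positive slope. Only 18 of the 13360 genes had a higher r with Aqp4 than Gja1 had, and 11 had a higher r with Gja1 than Aqp4 had. The pair was not called in both fits without batch 2 or batch 4, or with 20 expression components, where r was 0.48, 0.61 and 0.48. Without batch 4 the limma unadjusted p were 4.41e-06 on Aqp4 and 3.52e-06 on Gja1, but the fit on Gja1 then called 0% of all genes. Aqp4 was also called with Slc1a2, at r = 0.33 (permutation p 0.00297) and rho = 0.37 (permutation p 0.00067), with limma adjusted p of 0.0406 and 0.0143. Its r lay between 0.21 and 0.64 over the cells. Leaving out any of 3 rats ended the call in the fit on Aqp4, at a limma adjusted p of 0.0512 without male rat 39, 0.0543 without female rat 29 and 0.0529 without female rat 39, with r between 0.31 and 0.32. It was also lost with rank-based inverse normal values (adjusted p 0.0708 by limma), with 1 residual component of all genes (0.319), and without batch 3, 4 or 6.

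Gfap, the filament gene, was called with Aqp4 and S100b among the other 6, where its fit called 2.04% of all genes and 0.879% with a positive slope. With Aqp4, r was 0.41 (permutation p 0.00013) and rho 0.35 (permutation p 0.00188), with limma adjusted p of 0.0341 and 0.012, and r was 0.07 in run 1 of batch 3 and 0.43 to 0.53 in the other cells. With S100b, r was 0.38 (permutation p 0.00063) and rho 0.36 (permutation p 0.00105), with limma adjusted p of 0.0477 and 0.00222, and the cells ranged from 0.18 to 0.86. Without male rat 39 or female rat 29 this last pair was no longer called in both fits, at limma adjusted p of 0.066 and 0.0536. The fit on Gfap also lost it under median-ratio scaling (limma adjusted p 0.0557), genes at 0 as a covariate (0.0667), rank-based inverse normal values (0.116) and equal totals (0.285). It was lost too with 20 expression components and without batch 2, 3 or 6. Gfap with Aqp4 was no longer called in both fits when any of the 4 batches was left out. The same held under equal totals (limma adjusted p 0.144 on Gfap) and with rank-based inverse normal values (0.115). The fit on S100b called 49% of all genes, 23.8% with a positive slope, and 2900 of 13360 genes had a higher r with S100b than Gfap had. Gfap had an r near 0 with Slc1a3 (0.00), Kcnj10 (0.02) and Slc1a2 (−0.14), the transporters and the channel.

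**Figure D4:**
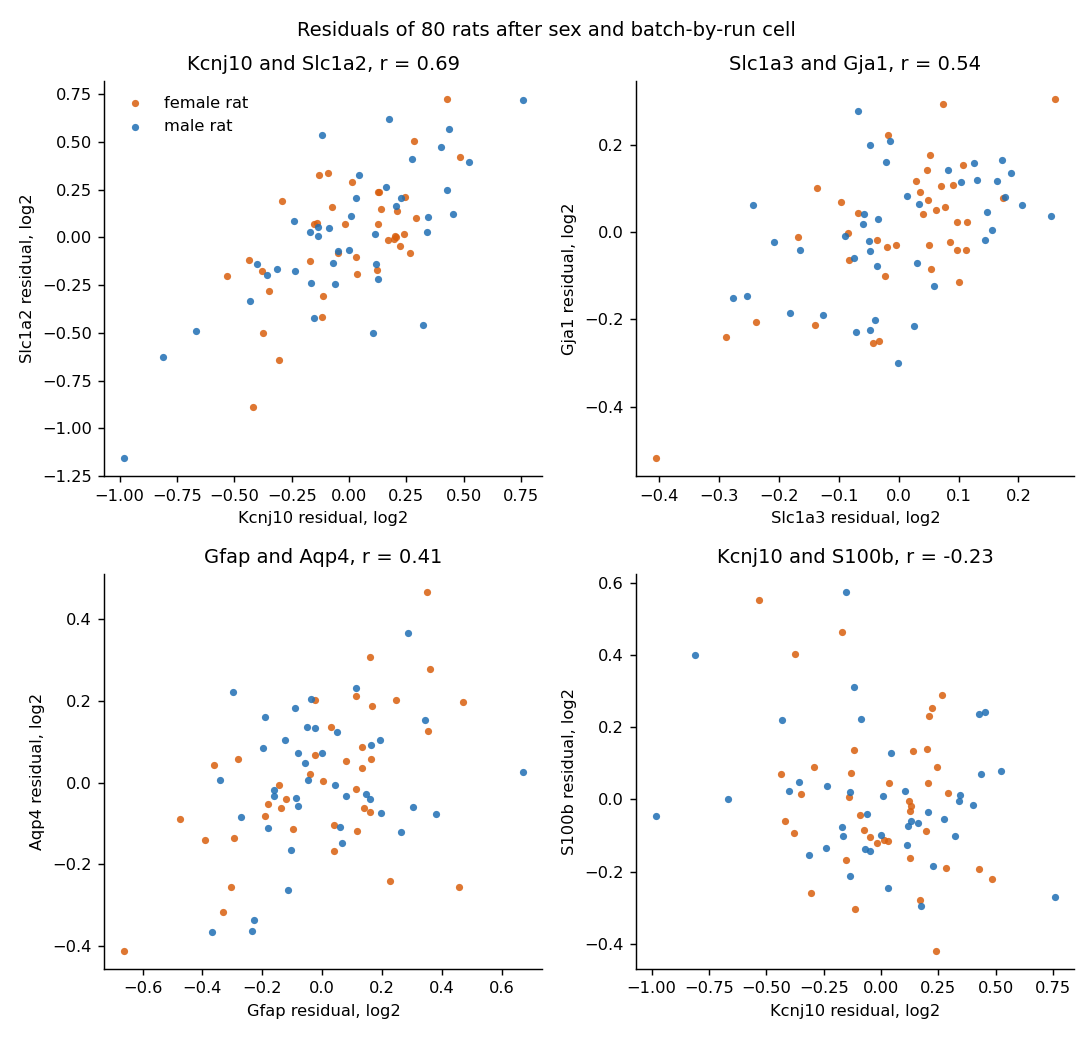
Residuals of 80 rats on the log2 scale after sex and batch-by-run cell, for the 4 pairs named above each panel; points are rats colored by sex. Kcnj10 and Slc1a2 rise together (r = 0.69), with male rat 39 at the lower left. In the panel of Slc1a3 and Gja1 (r = 0.54), female rat 39 is at the lower left.

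S100b had the lowest correlations. Its r with Kcnj10 was −0.23 (permutation p 0.0399, rho −0.13) and with Slc1a2 −0.20 (permutation p 0.0817, rho −0.14), and none of these 4 fits passed the limma threshold with the cells as covariates. With sex and batch only as covariates, both pairs were called in both fits, at r = −0.31 (limma adjusted p 0.0191 and 0.0123) for Kcnj10 and r = −0.26 (limma adjusted p 0.0469 and 0.0352) for Slc1a2. In that setting the fit on Kcnj10 called 18.6% of all genes with a negative slope, and that on Slc1a2 20.5%. Without batch 6 the pair with Kcnj10 was also called in both fits, at r = −0.34 (limma adjusted p 0.0283 and 0.0166), and without male rat 39 it was called in the fit on S100b alone, at an adjusted p of 0.0454 by limma. Without batch 6 the fits on Kcnj10 and S100b called 15.8% and 25.2% of all genes with a negative slope. Without male rat 39 the fit on S100b called 25.5% so. The r with Kcnj10 was −0.56 in batch 2, −0.69 and −0.33 in runs 1 and 2 of batch 3, −0.17 in batch 4 and 0.44 in batch 6. So the sign did not hold in all cells. S100b was called with Slc1a3 in 1 of the 2 fits, at r = 0.32 (permutation p 0.00397, rho 0.29).

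Several of these values moved with a pattern over all genes. The first component of the residuals of all genes held 7.09% of their summed variance, and it accounted for a median of 16.9% of the variance of a gene with a mean log2 level of at least 5. It took up 53.5% of the residual variance of S100b and 11.1% of that of Gfap in one direction, and 24.2% of Slc1a2, 16.9% of Kcnj10 and 7.74% of Aqp4 in the other. Of the variance of Slc1a3 and Gja1 it took up 0.000954% and 0.0013%. With this component as a covariate, a choice made after seeing the data, r was 0.61 for Kcnj10 and Slc1a2, 0.54 for Slc1a3 and Gja1, 0.54 for Aqp4 and Gja1, and 0.56 for Gfap and Aqp4. The r of S100b turned to 0.11 with Kcnj10 and 0.28 with Slc1a2, and Gfap with S100b fell to 0.20. The count of pairs called in both fits was then 7, of which 4 were among the 6. The 3 others all held Slc1a3, with Kcnj10, Slc1a2 and S100b. The shares of all genes called with a positive slope moved too, from 1.48% to 3.04% for Slc1a3, from 23.8% to 0.782% for S100b and from 0.879% to 0.0171% for Gfap.

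**Figure D5:**
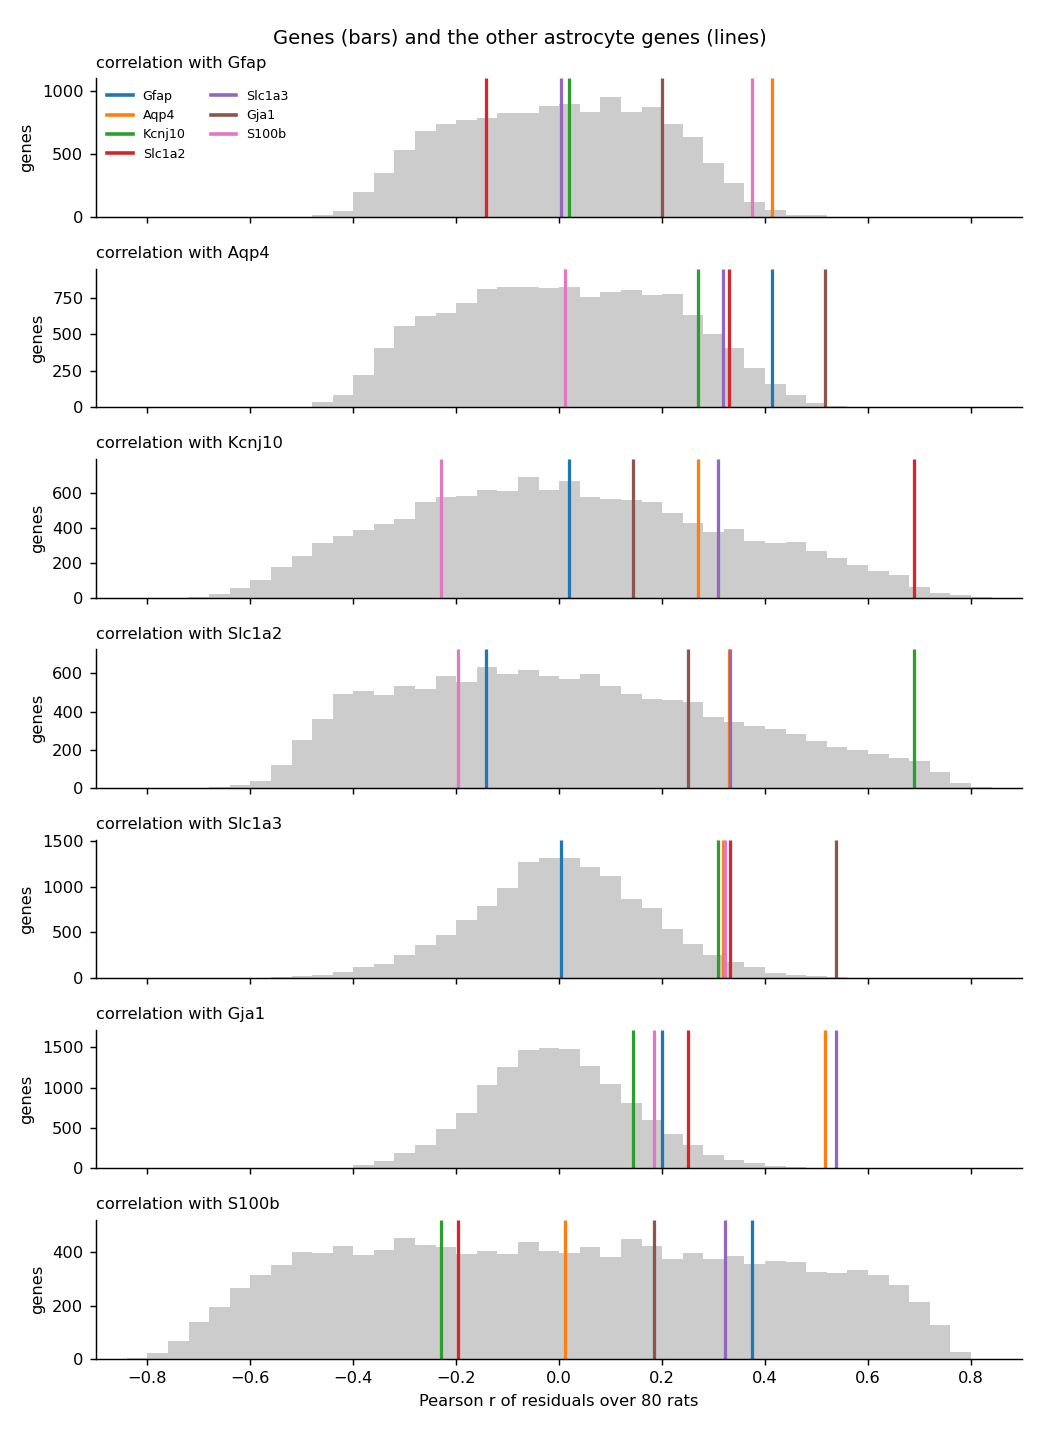
Number of genes (gray bars, vertical axis) by Pearson r of their residuals with each of the 7 genes (horizontal axis), over 80 rats and 13360 genes with a mean log2 level of at least 5. Colored lines mark the other 6 genes; the bars of Slc1a3 and Gja1 are narrow, with each other's line far to the right, whereas those of S100b are broad.

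Set against all genes, the members called with each gene were 2 of 6 for Gfap, 3 for Aqp4, 2 for Kcnj10, 3 for Slc1a2, 1 for Slc1a3, 2 for Gja1 and 2 for S100b, each with a positive slope. In the same order, the shares of all genes called with a positive slope were 0.879%, 5.53%, 16.6%, 17.7%, 1.48%, 0.24% and 23.8%. They were thus lowest for Gja1 and highest for S100b. The genes with the highest r to each member, 5 for each among genes with a mean log2 level of at least 5, held none of the other members. Their r ranged from 0.517 to 0.582 for Gfap, 0.571 to 0.628 for Aqp4, 0.797 to 0.835 for Kcnj10, 0.799 to 0.854 for Slc1a2, 0.567 to 0.663 for Slc1a3, 0.552 to 0.587 for Gja1 and 0.788 to 0.806 for S100b. Among these, 2 genes stood in more than 1 set: ENSRNOG00000012820 for both Aqp4 (0.571) and Gja1 (0.587), and ENSRNOG00000046005 for both Slc1a3 (0.575) and Gja1 (0.561). Their symbols are not paired with identifiers in the files used here.

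The correlations were also set side by side in the 2 sexes, within the same residuals. The r of Slc1a3 and S100b was 0.05 in males and 0.58 in females, that of Gfap and Slc1a3 −0.26 and 0.25, and that of Gfap and Gja1 −0.10 and 0.43. Permuting sex within cells gave two-sided p of 0.00292, 0.00587 and 0.0339 for these differences, the 3 smallest of 21 and not adjusted for that number. For the 6 pairs called in both fits, the difference between the sexes was between −0.29 and 0.38, and the smallest permutation p was 0.161.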

How the data were processed

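RNA-Seq of poly(A) RNA from the LHb of HS rats was used. According to the study's methods and the submitters' processing notes, the authors trimmed reads with cutadapt, used RSEM and the Ensembl rat transcriptome (build Rnor_6.0) to estimate counts of each gene, scaled them to the upper quartile with DESeq2, and filtered libraries and genes. The deposited log2 values are of these counts after the authors added a pseudocount of 1. Versions of these tools are not given in the sources used here. Scaling fixes the upper quartile (853.25 to 870 in all rats), so differences in RNA content between rats are not visible, and RSEM divides reads among similar transcripts. Recovered values departed from whole numbers by at most 0.0004%.

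The labels list 87 samples, 6 of them removed by the authors. Rats were grouped by labelled sex and rat batch, and 0 per-sample columns were left unused. The study aimed to avoid related rats, but among those of its nucleus accumbens core data it reports several pairs that seemed closely related. Kinship among the rats used here is not labelled, and no model took it into account. The main fits used 80 rats, without the 1 rat of batch 5. Column runs were defined with the original labels of male rats 8 and 9 of batch 3, which the authors had exchanged. Models were fitted to all 17512 genes with limma 3.58.1 in R 4.3.3 (lmFit, eBayes with trend), and p-values were adjusted over all genes by Benjamini-Hochberg, with 0.05 as the threshold. They were tested on simulated data. Correlations used 100000 permutations of residuals. Other steps used Python 3.11.15 (numpy 2.4.6, pandas 2.3.3) and matplotlib 3.10.9 for the plots.

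The members and lists were chosen with earlier results of these data known. Genes named are the 7 members and, of the 5 highest positive partners of each, the 2 that recur. Lists of other astrocyte, reactive astrocyte, neuron and other cell type markers were drawn up, but the reference held 0 Ensembl identifiers, so they could not be matched and are not reported. Alternatives were a pseudocount of 8, a mean log2 level of at least 5, median-ratio scaling, equal totals, rank-based inverse normal values, the number of genes at 0, column run, 20 expression components, no covariate, batch 5 included, each batch or sex left out, and, added after seeing the data, 1 residual component and 3 rats left out in turn.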

Additional observations from a re-analysis of the deposited data

Results flagged for a closer look

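In the sex-by-batch groups of 4 to 10 rats, 28 sets of values were searched for a rat far from the rest by Dixon's criterion, and 3 were found where chance gives about 1.4. Male rat 39 of batch 3 had the lowest Kcnj10 level, 8.32 on the log2 scale, against 9.23 to 10.02 in the other males of that batch (n = 10). The same rat had the lowest Slc1a2 level, 7.26 against 8.28 to 9.37. It had 594 genes listed at 0, within the range of all rats. Female rat 29 of batch 6 had a Slc1a3 level of 12.6 against 12.87 to 12.99 in the other females of its batch (n = 8), and was also lowest of all rats in S100b. The results without each of these rats are given among the alternatives.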

How the results depend on the processing

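No member was called for sex or for the interaction of sex with batch under any alternative, and 4 or 5 of 7 were called for batch under each. For batch, 65.3% of all genes were called in the main fit, and a lower share without batch 3 or with column run as a covariate. No paired analysis was possible because each column comes from a different rat. Counts over the markers of other cell types were not run. Of the 21 pairs, 6 were called in both fits. The count was 3 with rank-based inverse normal values, 3 without batch 2, 3 without batch 3, 2 without batch 4, 1 with 20 expression components, 2 in males alone and 1 in females alone. It was 4 without batch 6, of which 3 were among the 6, and 9 with sex and batch only, of which 6 were, and both held S100b with Kcnj10, and the second also S100b with Slc1a2, at a negative slope. Leaving out a batch or a sex also leaves fewer rats, and the cause was not tested. The pair of Kcnj10 and Slc1a2 was called in each setting except with 20 components, and that of Gfap and Aqp4 was the pair called then. Leaving out male rat 39, female rat 29 or female rat 39 gave 4 to 5 pairs. Under equal totals 8 pairs were called, of which 4 were among the 6. The shares of all genes called with a positive slope moved too. Under equal totals they rose from 5.53% to 17.4% for Aqp4 and from 0.24% to 0.948% for Gja1. They fell from 0.879% to 0.04% for Gfap and from 23.8% to 17.9% for S100b. With sex and batch only they were 10.3% for Aqp4, 20.2% for Kcnj10 and 21.1% for Slc1a2. With 20 components they were 0% for Kcnj10, Slc1a2 and Slc1a3. For run 2 against run 1 of batch 3, 2 members were called, 1 with genes at 0 in the model and 4 without male rat 39. Between batches 6 and 4 within run 3, 1 was called without female rat 39.

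Signs turned for differences and correlations that were not called. With 20 components the sex difference was −0.177 for Gfap, −0.254 for Aqp4, 0.217 for Slc1a2, −0.13 for Gja1 and −0.031 for S100b. These components were computed from all genes, the members included. With them the SE of the Gfap difference was much larger than in the main fit, so its sign there was poorly measured. It was 0.023 for Kcnj10 without batch 2 and 0.006 with column run, 0.001 for Slc1a3 without batch 3 and −0.009 for Gja1 without batch 6. When each of the 3 rats was left out in turn, it was −0.028 to 0.014 for Kcnj10 and −0.003 to 0.017 for Gja1. Gfap in run 2 against run 1 was −0.04 with genes at 0 in the model. The r of Aqp4 and S100b, 0.01, was −0.01 under median-ratio scaling, −0.05 under equal totals, −0.01 with genes at 0, −0.04 without batch 2, −0.06 without batch 6, −0.03 and −0.01 without female rats 29 and 39, −0.04 with sex and batch only and −0.09 in females. That of Gfap and Kcnj10 was −0.04 without batch 4, −0.06 without batch 6 and −0.14 in males, that of Gfap and Gja1 −0.10 and of Gja1 and S100b −0.03 in males. Gfap and Slc1a2 had 0.16 with 20 components, 0.01 in females and 0.03 with 1 residual component, for which Kcnj10 and S100b had 0.11 and Slc1a2 and S100b 0.28. With 20 components these were 0.11 and 0.36. The depth before scaling was not used, so the share of counting error in the spread of Slc1a2 and Kcnj10, the members with the lowest counts, is unknown.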

Other observations

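The only rat of batch 5, a female, entered no main comparison. In the alternative for sex that included it, its batch held no other rat, so it could not change the estimated difference. Its normalized counts were 9870 for Gfap, 16217 for Aqp4, 1263 for Kcnj10, 843 for Slc1a2, 10190 for Slc1a3, 7424 for Gja1 and 28268 for S100b. Those of Kcnj10, Slc1a2 and Slc1a3 were the highest of all 81 rats, while Gfap was below the median of all rats.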
